A study of Arabidopsis thaliana with 30 samples.

Results

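Abscisic acid (ABA) responses of the wild-type shoot were read from 6 of the 30 libraries of the series: the 3 libraries of Col-0 shoots treated with ABA, set against the 3 libraries of Col-0 shoots given the mock treatment. They were chosen by their labels alone. Col-0 is the common laboratory wild type of Arabidopsis thaliana, and both groups are labelled as wild type. The ABA group was incubated for 2 h with 10 µM ABA in liquid nutrient medium containing 0.5% sucrose, and the mock group for the same time with a matching amount of the ethanol solvent, both under a green safe light. All seedlings were 5 days old. They had been stratified for 2 days at 4 °C, kept in light for 1 day and in darkness for 4 days, and they were cut where root and shoot meet after treatment. The series as a whole asked how dark-grown roots and shoots respond to auxin and ABA in Col-0 and in aba2-3, a mutant of the ABA biosynthesis gene ABA2. The matching Col-0 root libraries, 3 with ABA and 3 with mock treatment, are used below only where the shoot response was compared with that of the root.

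ABA is the plant hormone of drought and seed dormancy. It is bound by soluble receptors of the PYR/PYL family, which then block the clade A protein phosphatases 2C (PP2Cs), and this frees the SnRK2 kinases to phosphorylate bZIP transcription factors of the ABF/ABI5 group. Those factors bind ABA-responsive elements (ABREs) in the promoters of target genes, many of which encode hydrophilic LEA proteins, enzymes of protective solutes, and components of the pathway itself. A shoot grown in darkness consists mainly of an elongating hypocotyl and closed cotyledons, and ABA is known to restrain the growth of young seedlings.

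The 6 libraries held 22.39 to 99.26 M counts. The summed level of 11 shoot markers was 21170 to 25660 CPM (counts scaled to library size) in the ABA shoots and 11100 to 29210 CPM in the mock shoots, against 236 to 3171 CPM in the ABA roots and 138.9 to 1970 CPM in the mock roots. Among 16 root markers, PLT1 and PLT2 were at 0 in all 3 ABA shoots, but the summed level of the list was higher in shoots than in roots. It was 10180 to 11560 CPM in ABA shoots and 7189 to 10970 CPM in mock shoots, most of it the gene PYK10. In roots it was 3933 to 4487 CPM after ABA and 4035 to 5412 CPM after mock treatment. Mock shoot replicate 1 stood apart. The median of 338 genes that mark the shoot was at 39.8% of its shoot level in this library. It was at 99.3% and 109% in the other mock shoots and at 69.3% to 89.3% in the ABA shoots. A set of 43 root-marking genes was at 1.38% to 3.62% of its root level in mock shoots, against 0.532% to 1.62% in ABA shoots. Both reference levels are those of aba2-3 libraries treated with the auxin IAA. Gene list counts that changed when mock shoot replicate 1 was left out are given with and without it. The labels do not say that replicates came from separate cultures. The p-values therefore measure spread between replicate libraries, estimated within the groups of all 30 libraries and not from these 6 alone. In such bulk RNA fewer cells of a type and less RNA per cell cannot be told apart.

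About as many genes were higher as lower after ABA, and the strong rises were found at higher expression levels than the strong falls. Of 22156 genes tested with edgeR, 2137 passed an adjusted p of 0.05, which is 9.65%. Of these, 1103 (4.98% of those tested) were higher and 1034 (4.67%) were lower in ABA shoots. Among the changes of at least 4-fold the numbers were equal, 225 in each direction, but the median level of the 225 higher genes was 25.2 CPM in ABA shoots and 2.68 CPM in mock shoots, and that of the 225 lower genes was 0.138 CPM in ABA shoots and 1.26 CPM in mock shoots. Of the 77 genes called lower by at least 16-fold, 42 had no count in any ABA library, and only 1 reached a mean log2 CPM of 3. The mock group was sequenced more deeply, at 24.42, 99.26 and 22.97 M counts, against 31.74, 22.71 and 22.39 M in the ABA libraries. Genes whose level in mock shoots was under 10% of that in mock roots made up 21.3% of the 225 genes lower by at least 4-fold, against 3.46% of all genes tested. The part that traces of root RNA in the mock shoots may have in these falls was not tested. In 1063 of the 1103 higher genes and 971 of the 1034 lower genes the 3 ABA libraries did not overlap the 3 mock libraries in CPM, and over all genes tested the ABA libraries lay wholly above the mock libraries in 12.2% and wholly below in 13.8%. Without mock replicate 1, 998 of the 1103 higher and 684 of the 1034 lower calls remained. The number of lower calls was 600 without mock replicate 3 and 562 without ABA replicate 3, and a fit of the 6 libraries alone called 909 genes higher and only 300 lower.

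**Figure D1:**
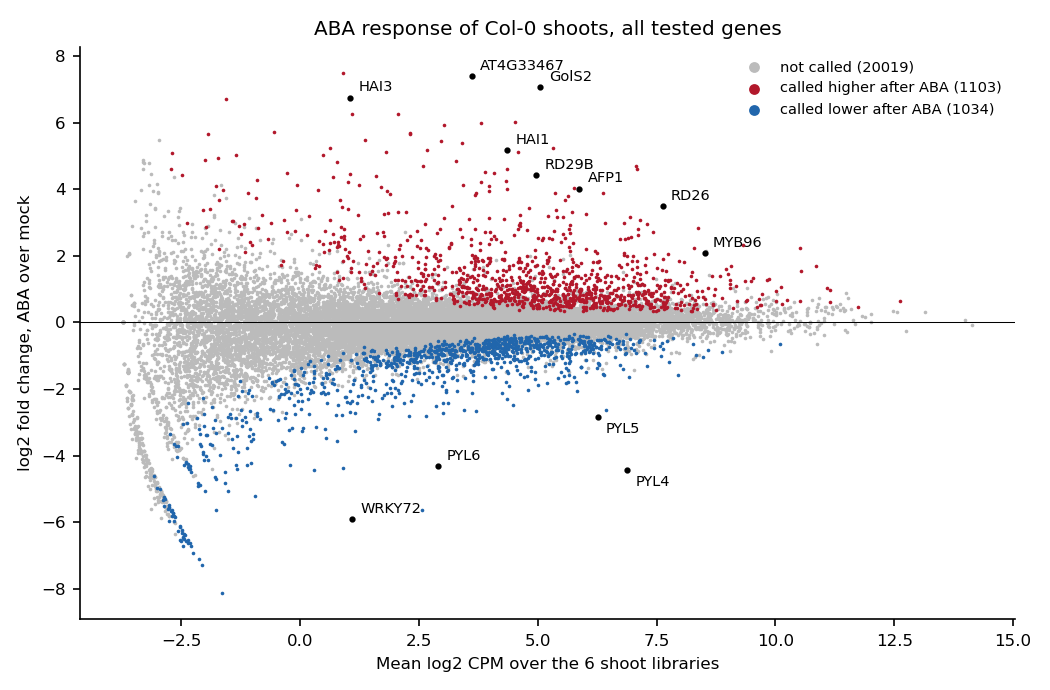
Log2 fold change of ABA over mock shoots (vertical axis) against mean log2 CPM of the 6 libraries (horizontal axis), one point per tested gene, with called genes in colour and selected genes labelled. The 1103 higher genes extend to high expression levels, while most of the strongest falls lie at the low end, with PYL4 as an abundant exception.

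The receptors were the part of the pathway that fell. Of 10 receptor genes tested, 6 were lower in ABA shoots and 1 was higher, with a median log2 fold change of -1.28 against -0.07 over all genes tested, and PYL10, PYL11, PYL12 and PYL13 were too low to test. PYL4 (chr2:16050063-16051168, plus strand) had 26.6, 24.2 and 25.1 CPM in the ABA libraries, against 507, 583 and 538 CPM in the mock libraries. The groups were far apart and the libraries of each group close together, and PYL4 fell more than any other gene above the level minimum used to rank genes (a mean log2 CPM of 3; log2 fold change -4.42 ± 0.17 SE, adjusted p = 5.92e-15 by edgeR). PYL6 had 1.48, 1.24 and 2.26 CPM in the ABA libraries, against 33.2, 29.8 and 36.1 CPM in the mock libraries, again without overlap (log2 fold change -4.32 ± 0.30 SE, adjusted p = 1.7e-10 by edgeR). PYL5 had 29.8, 25.1 and 31.5 CPM in the ABA libraries, against 253, 187 and 177 CPM in the mock libraries (log2 fold change -2.84 ± 0.14 SE, adjusted p = 4.27e-13 by edgeR). The dimeric receptors PYR1 and PYL1 fell less, with log2 fold changes of -1.57 ± 0.19 for PYR1 and -1.002 ± 0.13 for PYL1 (SE), and edgeR adjusted p of 1.54e-06 and 5.66e-06.

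PYL9 alone among the tested receptors was higher, with 91.7, 97.5 and 81.3 CPM in the ABA libraries, against 39.2, 33.5 and 30.2 CPM in the mock libraries (log2 fold change 1.39 ± 0.13 SE, adjusted p = 3.86e-08 by edgeR). Its 3 ABA libraries all exceeded its 3 mock libraries. Compared per length on the deposited RPKM scale, the order of the receptors differed between the groups. Over 3 libraries, PYL9 in ABA shoots averaged 79.9 RPKM and PYL8 61.7 RPKM, ahead of PYR1 at 31.0, PYL5 at 21.2 and PYL4 at 20.2 RPKM. In mock shoots PYL4 averaged 476 RPKM, PYL5 168, PYR1 102, PYL8 99.8 and PYL9 33.5 RPKM. For PYL8 the libraries of both groups overlapped (log2 fold change -0.57 ± 0.16 SE, adjusted p = 0.0183 by edgeR), and, with libraries left out one at a time here and below, it fell short of the threshold without mock shoot replicate 2 or ABA shoot replicates 2 or 3 (edgeR adjusted p of 0.145 to 0.216). PYL7 shares 49% of its exon sequence with other genes, so its counts are uncertain.

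The phosphatases that the receptors inhibit rose almost as a family. Of 9 clade A PP2C genes, 8 were higher and 0 lower, with a median log2 fold change of 3.31. HAI3 had 19.5, 21.1 and 15.5 CPM in the ABA libraries, against 0.0803, 0.181 and 0.229 CPM in the mock libraries (log2 fold change 6.76 ± 0.48 SE, adjusted p = 2.59e-10 by edgeR). HAI2 had 31.7, 34.9 and 36.7 CPM in the ABA libraries, against 0.602, 0.447 and 0.274 CPM in the mock libraries (log2 fold change 6.26 ± 0.76 SE, adjusted p = 1.78e-06 by edgeR). Both genes were close to absent in mock shoots and their groups lay far apart. HAI1 (chr5:23894404-23896619, minus strand) had 119, 114 and 139 CPM in the ABA libraries, against 5.14, 2.52 and 2.699 CPM in the mock libraries (log2 fold change 5.19 ± 0.49 SE, adjusted p = 3.65e-08 by edgeR). PP2CA, a phosphatase active in seeds and guard cells, had 321, 299 and 335 CPM in the ABA libraries, against 23.7, 19.3 and 21.5 CPM in the mock libraries (log2 fold change 3.89 ± 0.16 SE, adjusted p = 1.2e-14 by edgeR), and none of its ABA libraries came near a mock library. The other called members rose less: the log2 fold change was 3.31 ± 0.26 for ABI2, 2.57 ± 0.17 for HAB1, 2.24 ± 0.16 for ABI1 and 1.16 ± 0.17 for HAB2 (SE). AHG1, a seed phosphatase, had 1.48, 0.593 and 0.21 CPM in the ABA libraries, against 0.0803, 0.0957 and 0.183 CPM in the mock libraries, and although the groups did not overlap it missed the threshold (edgeR adjusted p = 0.0573).

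Among the kinases in the middle of the pathway the share called was 10.0%, near the 9.65% over all genes. Of 10 SnRK2 genes only SNRK2.7 was called, with 62.9, 70.7 and 90.03 CPM in the ABA libraries, against 33.2, 10.3 and 17.5 CPM in the mock libraries (log2 fold change 1.88 ± 0.31 SE, adjusted p = 0.00015 by edgeR). Mock replicate 1 was the highest of its mock libraries, and still below every ABA library. The 3 kinases that ABA activates most strongly were not called: the log2 fold change was 0.27 ± 0.24 for OST1 (SNRK2.6), -0.23 ± 0.11 for SNRK2.2 and -0.14 ± 0.18 for SNRK2.3 (SE), with edgeR adjusted p of 0.56, 0.208 and 0.704.

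Further down, the bZIP factors and their binding partners rose. Of 8 tested genes of the ABF/ABI5 group, 6 were higher and 0 lower, with a median of 1.62. ABI5, the factor that arrests growth of germinating seedlings, had 29.5, 29.7 and 21.8 CPM in the ABA libraries, against 5.14, 6.21 and 4.71 CPM in the mock libraries (log2 fold change 2.33 ± 0.25 SE, adjusted p = 2.85e-07 by edgeR). ABF3 had 442, 432 and 430.2 CPM in the ABA libraries, against 97.1, 109 and 107 CPM in the mock libraries (log2 fold change 2.06 ± 0.18 SE, adjusted p = 5.9e-09 by edgeR). In both the ABA libraries stood clear of the mock libraries. ABF2, ABF4 and GBF3 rose by a log2 fold change of 1.91, 1.34 and 2.00, while AREB3 (-0.40) and EEL (0.51) were not called and DPBF2 was too low to test. ABF1 was called at 0.74, but an antisense neighbour overlaps 7.54% of its exons, the strand used in counting is not given in the sources used here, and the call was lost without mock shoot replicates 2 or 3 (edgeR adjusted p of 0.0814 to 0.104). All 4 AFP genes, which encode ABI5-binding repressors, were higher: AFP1 had 242, 244 and 235 CPM in the ABA libraries, against 18.2, 16.05 and 9.97 CPM in the mock libraries (log2 fold change 4.02 ± 0.20 SE, adjusted p = 4.35e-13 by edgeR), and AFP3, TMAC2 and AFP2 rose by a log2 fold change of 2.72, 1.40 and 1.36.

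**Figure D2:**
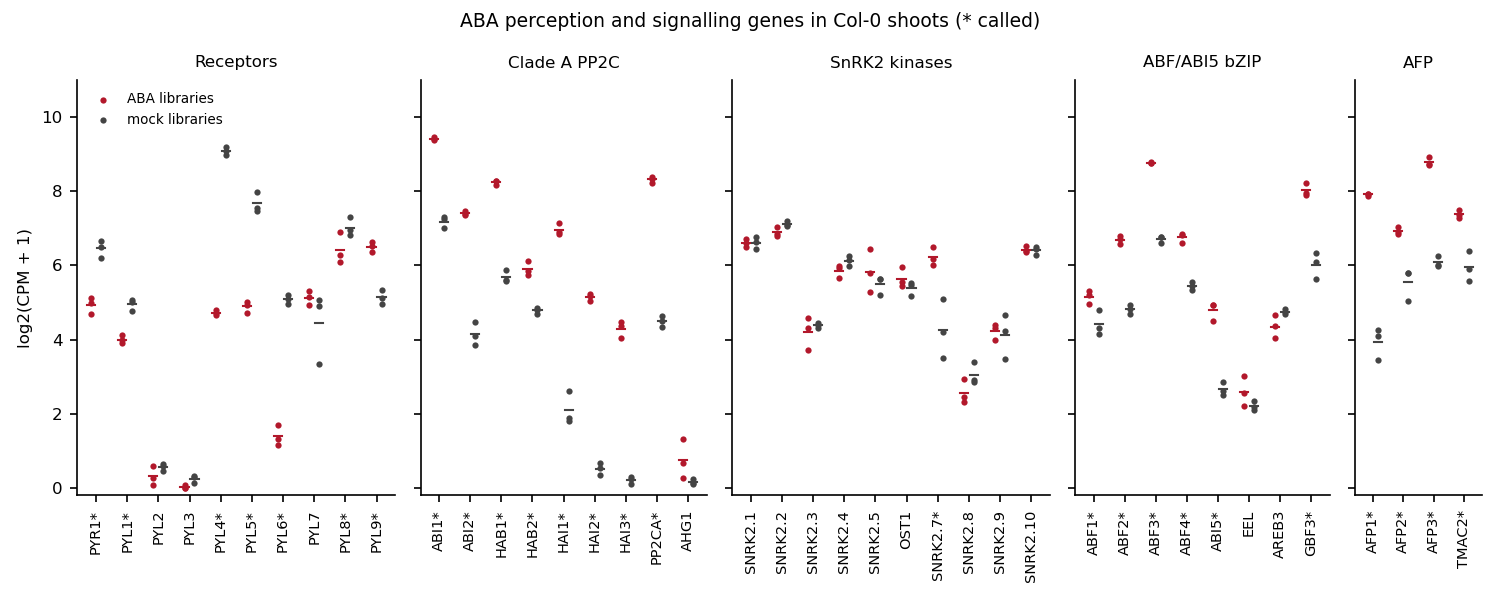
Log2(CPM + 1) of each of the 6 libraries for the genes of the core ABA pathway, grouped by role, with bars at the mean of 3 libraries and asterisks on called genes. ABA libraries lie below the mock libraries for PYL4, PYL5 and PYL6 and above them for the PP2C and AFP genes, while the SnRK2 genes other than SNRK2.7 lie close together.

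Promoters of the genes that rose held ABRE cores more often than other promoters. The core ACGTG was searched on both strands from 250 bases before to 50 bases after each annotated gene start in the TAIR10.1 sequence. It was found in 59.4% of 1102 higher genes and 24.5% of 1034 lower genes, against 27.0% of the 19894 tested genes that were not called. Among the genes higher by at least 16-fold the share was 71.4% of 56. The longer forms ACGTGGC or ACGTGTC, which contain the core, were in 39.2% of the higher and 3.38% of the lower genes, against 8.2% of genes not called and 9.52% of all tested. The G-box CACGTG, which also overlaps the core, was in 34.8% of the higher genes and 3.48% of the lower genes, against 7.96% of genes not called. The dehydration-responsive element CCGAC was in 27.7% of the higher and 12.2% of the lower genes, against 17.5% of those not called. These shares describe letters in a window and not bound sites.

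Promoters of 5 genes with large changes are shown to make the contrast visible: HAI1, RD29B, AT4G33467 and GolS2, which rose, and PYL4, which fell. Each is the stretch of 250 bases before the gene start in TAIR10.1, written 5′ to 3′ on the gene's own strand, with capitals marking every ABRE core (ACGTG or its complement CACGT). They lie at chr5:23896620-23896869 (HAI1, minus strand), chr5:21236806-21237055 (RD29B, plus strand), chr4:16102197-16102446 (AT4G33467, minus strand), chr1:21207287-21207536 (GolS2, plus strand) and chr2:16049813-16050062 (PYL4, plus strand).
HAI1: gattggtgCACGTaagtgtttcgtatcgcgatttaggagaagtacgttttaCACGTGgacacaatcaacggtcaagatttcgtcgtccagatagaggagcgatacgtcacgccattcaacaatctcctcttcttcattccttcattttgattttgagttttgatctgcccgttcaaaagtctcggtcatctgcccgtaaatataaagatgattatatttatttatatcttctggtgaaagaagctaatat
RD29B: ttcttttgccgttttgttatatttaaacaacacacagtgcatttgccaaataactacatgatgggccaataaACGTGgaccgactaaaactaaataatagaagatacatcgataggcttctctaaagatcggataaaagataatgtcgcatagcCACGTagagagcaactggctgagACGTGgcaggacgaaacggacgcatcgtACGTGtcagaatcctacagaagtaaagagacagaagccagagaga
AT4G33467: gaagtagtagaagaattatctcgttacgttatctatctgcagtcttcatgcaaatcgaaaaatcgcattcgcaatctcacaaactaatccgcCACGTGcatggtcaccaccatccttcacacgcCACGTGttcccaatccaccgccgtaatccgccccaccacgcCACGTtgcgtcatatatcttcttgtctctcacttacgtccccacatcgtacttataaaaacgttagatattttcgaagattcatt
GolS2: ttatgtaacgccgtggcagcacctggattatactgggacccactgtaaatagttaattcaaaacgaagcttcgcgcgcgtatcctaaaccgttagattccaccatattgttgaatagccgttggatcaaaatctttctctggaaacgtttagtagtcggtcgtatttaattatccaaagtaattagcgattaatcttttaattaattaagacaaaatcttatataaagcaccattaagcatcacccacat
PYL4: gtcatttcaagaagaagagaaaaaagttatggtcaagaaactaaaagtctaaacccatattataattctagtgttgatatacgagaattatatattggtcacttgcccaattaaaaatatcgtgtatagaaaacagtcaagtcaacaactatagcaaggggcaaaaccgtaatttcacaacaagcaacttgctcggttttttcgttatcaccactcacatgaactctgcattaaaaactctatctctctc

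Counting both strands, HAI1 had 3 cores in 2 capital runs, RD29B had 4 separate cores, and AT4G33467 had 5 cores in 3 runs, since a palindromic CACGTG holds a core on each strand. GolS2 and PYL4 had 0 cores in this window, which says only that these letters are not there.

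**Figure D3:**
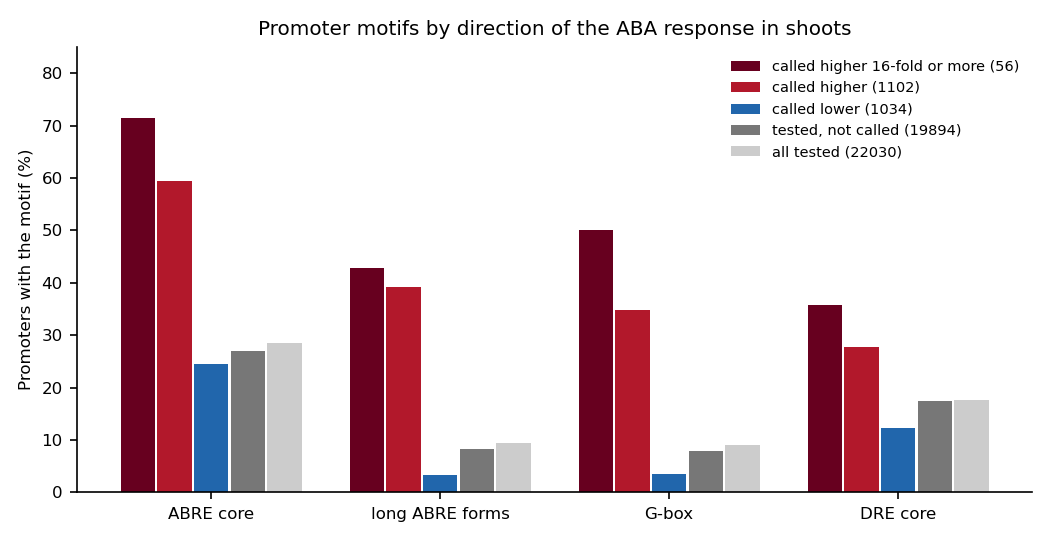
Percentage of promoters (250 bases before to 50 bases after the gene start) that hold the ABRE core, its longer forms, the G-box or the dehydration-responsive element, by set of genes. For the core, the bar of the genes called higher in ABA shoots stands at 59.4% and that of the genes called lower at 24.5%.

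Calls in ABA metabolism and transport fell on single genes. The share called was 22.2% for biosynthesis, 28.6% for breakdown and 33.3% for transport, against 9.65% over all genes. Each of these shares rests on 2 genes. NCED3, the stress-induced dioxygenase that commits carotenoids to ABA synthesis, had 50.7, 40.8 and 49.5 CPM in the ABA libraries, against 17.3, 13.6 and 18.2 CPM in the mock libraries (log2 fold change 1.53 ± 0.30 SE, adjusted p = 0.000976 by edgeR), so the groups did not overlap. Of 9 tested biosynthesis genes 2 were higher and 0 lower, and 1 was higher without mock replicate 1. The other was ABA1, zeaxanthin epoxidase, whose call (log2 fold change 0.93 ± 0.28 SE, adjusted p = 0.0318 by edgeR) was lost without mock shoot replicate 1 or ABA shoot replicates 2 or 3 (edgeR adjusted p of 0.0653 to 0.134). On the breakdown side 1 of 7 genes rose and 1 fell. CYP707A1, an ABA 8′-hydroxylase, had 293, 407 and 315 CPM in the ABA libraries, against 137, 182 and 103 CPM in the mock libraries (log2 fold change 1.26 ± 0.21 SE, adjusted p = 0.00021 by edgeR). The glucosyltransferase gene UGT71C5, which conjugates ABA, fell by 0.80 on the log2 scale (edgeR adjusted p = 0.00381). Of 6 transport genes, the exporter gene ABCG25 rose, with 42.8, 38.4 and 32.7 CPM in the ABA libraries, against 12.2, 10.2 and 8.05 CPM in the mock libraries (log2 fold change 1.90 ± 0.22 SE, adjusted p = 9.62e-07 by edgeR). The importer gene NPF4.6 fell by 0.79 (edgeR adjusted p = 0.00133).

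LEA and dehydrin genes, whose hydrophilic products accumulate in drying seeds and stressed leaves, rose almost throughout. Of 23 tested genes, 22 were higher and 0 lower, with a median log2 fold change of 3.83, and 21 were higher without mock replicate 1. LEA4-1 had 19.6, 14.1 and 12.7 CPM in the ABA libraries, against 0.482, 0.17 and 0.503 CPM in the mock libraries (log2 fold change 5.49 ± 0.57 SE, adjusted p = 1.59e-07 by edgeR). COR15A, a chloroplast-protecting protein, had 35.7, 62.6 and 71.4 CPM in the ABA libraries, against 0.723, 2.06 and 0.732 CPM in the mock libraries (log2 fold change 5.47 ± 0.57 SE, adjusted p = 1.58e-07 by edgeR). Mock levels of both were at or below 2.06 CPM and every ABA library was at 12.7 CPM or more. RD29B (chr5:21237056-21239529, plus strand), a widely used ABA reporter gene, had 122, 146 and 166 CPM in the ABA libraries, against 6.30, 6.20 and 7.64 CPM in the mock libraries (log2 fold change 4.43 ± 0.35 SE, adjusted p = 1.92e-09 by edgeR). RAB18 had 45.6, 65.5 and 72.1 CPM in the ABA libraries, against 2.45, 3.23 and 4.21 CPM in the mock libraries (log2 fold change 4.21 ± 0.33 SE, adjusted p = 1.31e-09 by edgeR). On the deposited RPKM scale RD29A averaged 268 and ERD10 669 RPKM in mock shoots, against 3.06 RPKM for RD29B, and their log2 fold changes were smaller, at 2.25 ± 0.25 for RD29A and 1.71 ± 0.21 for ERD10 (SE). ECP63, LEA4-5, LEA7 and AT3G15670 rose by a log2 fold change of 4.52 to 5.02, and M17, with 2 counts in all ABA libraries together, was not called. HAB2, PYL8, RD29A, RD29B, RAB18 and ERD10 were named after their values had been seen.

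Enzymes of protective solutes rose at 1 or a few paralogs. GolS2, a galactinol synthase at the entry to raffinose synthesis, had 374, 384 and 417 CPM in the ABA libraries, against 4.74, 1.86 and 2.33 CPM in the mock libraries (log2 fold change 7.06 ± 0.38 SE, adjusted p = 1.6e-12 by edgeR). It went with a rise of RS5, a raffinose synthase, at 1.17 ± 0.19 and with a fall of DIN10, a dark-inducible gene of the same family, at -1.05 ± 0.19 (log2 fold change, SE), and 3 of 9 genes of this list were higher and 1 lower. The call for the third, GolS3, was lost without mock shoot replicate 3 or ABA shoot replicates 2 or 3 (edgeR adjusted p of 0.0524 to 0.0579). P5CS1, the rate-limiting enzyme of proline synthesis, had 72.0, 82.8 and 96.0 CPM in the ABA libraries, against 11.1, 15.3 and 16.5 CPM in the mock libraries (log2 fold change 2.55 ± 0.26 SE, adjusted p = 1.56e-07 by edgeR). The proline dehydrogenase gene ERD5 fell by 0.89 (edgeR adjusted p = 0.00186), a call lost in a fit of the 6 shoot libraries alone. The other 4 genes of the proline list were not called. Of 10 tested seed storage and seed regulator genes only SOM, a zinc finger repressor of germination, was called, with 100.1, 168 and 136 CPM in the ABA libraries, against 20.8, 19.4 and 17.1 CPM in the mock libraries (log2 fold change 2.81 ± 0.30 SE, adjusted p = 2.15e-07 by edgeR). The median of that list was -1.36. Its share called was 10.0%, against 44.4% for the raffinose list, 33.3% for the proline list and 9.65% over all genes.

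Transcription factor families known from drought rose in part, and WRKY genes fell in part. Among homeodomain-leucine zipper I genes 4 of 7 were higher and 0 lower: HB7 had 148, 175 and 201 CPM in the ABA libraries, against 19.0, 8.85 and 13.5 CPM in the mock libraries (log2 fold change 3.67 ± 0.32 SE, adjusted p = 1.18e-08 by edgeR). HB12, its close paralog, had 369.8, 347 and 391 CPM in the ABA libraries, against 60.7, 59.9 and 36.7 CPM in the mock libraries (log2 fold change 2.82 ± 0.32 SE, adjusted p = 8.59e-07 by edgeR). All ABA libraries of both genes were above all mock libraries. Among NAC genes 7 of 11 were higher and 0 lower. NAC019 had 56.2, 48.3 and 43.8 CPM in the ABA libraries, against 4.46, 2.56 and 3.202 CPM in the mock libraries (log2 fold change 3.88 ± 0.37 SE, adjusted p = 4.37e-08 by edgeR), and RD26 (NAC072) rose by a log2 fold change of 3.495 ± 0.21 and NAC032 by 3.79 ± 0.17. Among R2R3 MYB genes 9 of 17 were higher and 0 lower, led by MYB41, a regulator of cuticle and suberin, at 4.12 ± 0.69 and MYB102 at 4.11 ± 0.69. MYB96, an activator of wax synthesis, rose by 2.08 ± 0.51, a call lost without mock shoot replicate 3 (edgeR adjusted p of 0.0617).

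Of 12 DREB and related ERF genes, known chiefly from cold and drought, 8 were higher and 0 lower. CBF3 had 73.0, 52.2 and 61.8 CPM in the ABA libraries, against 5.50, 3.07 and 3.61 CPM in the mock libraries (log2 fold change 3.95 ± 0.48 SE, adjusted p = 1.97e-06 by edgeR). CBF1 had 162, 110.1 and 157 CPM in the ABA libraries, against 29.3, 39.8 and 22.9 CPM in the mock libraries (log2 fold change 2.22 ± 0.33 SE, adjusted p = 3.4e-05 by edgeR). Neither gene showed overlap between the groups. CBF4 and CBF2 rose by a log2 fold change of 3.07 and 1.89. Of 16 WRKY genes, best known from defence and senescence, 0 were higher and 5 were lower, with a median of -0.91. Without mock replicate 1 there were 1 higher and 4 lower. One of the 5, WRKY47, was not called without mock shoot replicate 1 or ABA shoot replicates 1 or 3 (edgeR adjusted p of 0.0505 to 0.158). WRKY72 had 0.172, 0.148 and 0.474 CPM in the ABA libraries, against 22.8, 8.87 and 15.1 CPM in the mock libraries (log2 fold change -5.92 ± 0.54 SE, adjusted p = 1.88e-08 by edgeR). WRKY70 had 19.0, 17.4 and 19.2 CPM in the ABA libraries, against 63.8, 50.2 and 41.5 CPM in the mock libraries (log2 fold change -1.48 ± 0.22 SE, adjusted p = 3.33e-05 by edgeR).

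The 10 largest rises above the level minimum, among genes whose groups did not overlap, included GolS2, HAI1 and several genes outside the lists, some of little known function. AT4G33467 (chr4:16101464-16102196, minus strand) had 139, 145 and 175 CPM in the ABA libraries, against 0.803, 0.872 and 1.05 CPM in the mock libraries (log2 fold change 7.40 ± 0.56 SE, adjusted p = 7.81e-10 by edgeR). TSPO, a membrane protein of the secretory pathway known to be induced by ABA, had 186, 169.5 and 204 CPM in the ABA libraries, against 3.25, 1.48 and 4.21 CPM in the mock libraries (log2 fold change 6.02 ± 0.45 SE, adjusted p = 6.56e-10 by edgeR). EDL3, an F-box protein, had 69.6, 71.8 and 61.5 CPM in the ABA libraries, against 1.28, 1.80 and 1.65 CPM in the mock libraries (log2 fold change 5.40 ± 0.52 SE, adjusted p = 4.56e-08 by edgeR). In these 3 genes every mock library was low and every ABA library high. HSFA6B, a heat shock factor, rose by a log2 fold change of 5.25 ± 0.48 and MAPKKK18, a kinase of an ABA-activated MAPK cascade, by 5.13 ± 0.21 (SE). AT4G33905, AT3G03341 and AT3G27250 rose by 6.001, 5.94 and 4.84.

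PYL4 and PYL5 led the 10 largest falls above the same minimum, and the other 8 were between -2.71 and -2.13 on the log2 scale. The minimum is a mean over both groups and so works against strong falls. It left out PYL6 and WRKY72, with log2 fold changes of -4.32 and -5.92. After PYL4 and PYL5 came AT5G48430, with 2.00, 3.71 and 4.16 CPM in the ABA libraries, against 27.2, 12.1 and 25.02 CPM in the mock libraries (log2 fold change -2.71 ± 0.46 SE, adjusted p = 0.000217 by edgeR). PTR3, a peptide transporter, had 6.28, 4.84 and 4.31 CPM in the ABA libraries, against 36.0, 30.8 and 32.1 CPM in the mock libraries (log2 fold change -2.67 ± 0.22 SE, adjusted p = 2.94e-09 by edgeR). PP2-A5, a phloem lectin-like protein, had 4.38, 5.14 and 3.53 CPM in the ABA libraries, against 26.3, 30.4 and 24.7 CPM in the mock libraries (log2 fold change -2.64 ± 0.31 SE, adjusted p = 1.23e-06 by edgeR). No library of one group reached the range of the other in these 3 genes. AT4G21870, AT5G61590, AT2G27660 and AT1G72416 had log2 fold changes of -2.63, -2.47, -2.43 and -2.304. NRT1.8, a nitrate transporter that unloads the xylem, fell by 2.13, and its call was lost without mock shoot replicate 1 (edgeR adjusted p of 0.054).

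Genes of photosynthesis did not pass the test. Of 34 such genes 0 were called in either direction by edgeR, 0 had an unadjusted p under 0.05 and 0 were called by DESeq2, and their log2 fold changes ran from -0.68 to 0.15. Over all genes, 5070 had an unadjusted p under 0.05 in edgeR. CAB1, a chlorophyll a/b-binding protein that shares 20.2% of its exon sequence with other genes, had 18742, 17155 and 19238 CPM in the ABA libraries, against 9383, 25158 and 23227 CPM in the mock libraries, so the lowest value was that of mock replicate 1. Of 24 genes of chlorophyll metabolism only NYE1, a gene of chlorophyll degradation, was called, with 38.0, 38.2 and 50.8 CPM in the ABA libraries, against 16.7, 18.3 and 19.6 CPM in the mock libraries (log2 fold change 1.22 ± 0.14 SE, adjusted p = 9.95e-07 by edgeR). That is 4.17% of the list, against 9.65% of all genes.

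Growth-related and hormone lists had calls in both directions, most of them on few genes. The share of members called ran from 5.26% for the cell cycle and 10.0% for dark growth regulators, expansins and brassinosteroids to 23.8% for ethylene, against 9.65% over all genes. Of 20 regulators of growth in darkness 1 was higher and 1 lower (0 and 2 without mock replicate 1), and the log2 fold change of PIF3 was 0.14 and that of PIF4 0.37, neither called. The higher gene was HFR1, a regulator of light signalling, whose call was lost without mock shoot replicates 1, 2 or 3 or ABA shoot replicates 1, 2 or 3 (edgeR adjusted p of 0.0718 to 0.152). The lower one was HLS1, a gene of the apical hook, whose call was lost without mock shoot replicates 2 or 3 or ABA shoot replicate 3 (edgeR adjusted p of 0.0899 to 0.208). Among 10 expansin genes 1 was lower, among 16 XTH genes of cell wall remodelling 1 was higher and 1 lower, and among 19 cell cycle genes 1 was higher. Without mock replicate 1 the XTH list had 3 higher and 1 lower, and the cell cycle list 1 higher and 1 lower. The expansin EXPA1 was not called without mock shoot replicates 2 or 3 or ABA shoot replicates 1, 2 or 3 (edgeR adjusted p of 0.128 to 0.334). XTH33 had 34.0, 24.4 and 23.5 CPM in the ABA libraries, against 102, 74.7 and 71.8 CPM in the mock libraries (log2 fold change -1.60 ± 0.26 SE, adjusted p = 0.000134 by edgeR), and the groups did not overlap. The higher XTH gene, XTH19, was not called without mock shoot replicates 2 or 3 or ABA shoot replicate 3 (edgeR adjusted p of 0.0556 to 0.12). Of 22 gibberellin genes 1 was higher and 2 were lower, and 2 were higher without mock replicate 1. The lower ones were GAI and GID1A. GAI, a DELLA repressor, had 19.6, 18.7 and 13.8 CPM in the ABA libraries, against 29.1, 37.1 and 31.7 CPM in the mock libraries (log2 fold change -0.91 ± 0.15 SE, adjusted p = 0.000149 by edgeR). GID1A, a gibberellin receptor, had 18.1, 19.5 and 23.3 CPM in the ABA libraries, against 39.1, 31.7 and 35.2 CPM in the mock libraries (log2 fold change -0.80 ± 0.15 SE, adjusted p = 0.000791 by edgeR). In both genes each ABA library was below each mock library.

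Of 16 auxin response genes 2 were lower, and 0 were once mock replicate 1 was left out. Of 21 ethylene genes 5 were lower and 0 higher, including the receptor gene ETR2, with 9.45, 9.24 and 6.68 CPM in the ABA libraries, against 20.3, 29.5 and 29.1 CPM in the mock libraries (log2 fold change -1.63 ± 0.29 SE, adjusted p = 0.000311 by edgeR). ETR2 was the only one of the 5 called with every library left out in turn: ACS11 was lost without ABA shoot replicate 2 (edgeR adjusted p of 0.0528), and CTR1 without mock shoot replicates 2 or 3 or ABA shoot replicate 3 (edgeR adjusted p of 0.0692 to 0.225). ACO4 was lost without mock shoot replicates 2 or 3 or ABA shoot replicates 1, 2 or 3 (edgeR adjusted p of 0.0694 to 0.368), and EBF2 without mock shoot replicates 2 or 3 or ABA shoot replicates 1, 2 or 3 (edgeR adjusted p of 0.0536 to 0.153). Of 22 jasmonate genes 2 were higher and 2 lower, and without mock replicate 1 the higher count was 4. JAZ4, a jasmonate repressor, had 1.00, 0.84 and 0.316 CPM in the ABA libraries, against 9.35, 3.66 and 8.69 CPM in the mock libraries (log2 fold change -3.26 ± 0.45 SE, adjusted p = 1.31e-05 by edgeR), its ABA libraries all at the low end. The other lower gene, the lipoxygenase LOX2, was not called without mock shoot replicates 2 or 3 or ABA shoot replicates 1, 2 or 3 (edgeR adjusted p of 0.0711 to 0.33). Of 16 cytokinin genes 2 were higher and 1 was lower, the lower one being the cytokinin synthesis gene IPT3 at -2.03 ± 0.43. Without mock replicate 1 the higher count was 0. The IPT3 call was lost in a fit of the 6 shoot libraries alone. Among 10 brassinosteroid genes only BAS1, which inactivates brassinosteroids, was called, at -0.90 ± 0.21, and 2 were lower without mock replicate 1. MYB28, a regulator of aliphatic glucosinolates, had 0.621, 1.24 and 0.684 CPM in the ABA libraries, against 5.34, 5.93 and 5.49 CPM in the mock libraries (log2 fold change -2.74 ± 0.38 SE, adjusted p = 1.3e-05 by edgeR), while 3 of the 16 tested genes of its list were higher, and 5 without mock replicate 1. Calls among the 3 were lost without other libraries: SOT18 was lost without mock shoot replicate 2 (edgeR adjusted p of 0.0558), SOT16 without mock shoot replicates 2 or 3 or ABA shoot replicates 1, 2 or 3 (edgeR adjusted p of 0.0538 to 0.193) and MYB34 without mock shoot replicates 2 or 3 or ABA shoot replicates 2 or 3 (edgeR adjusted p of 0.0503 to 0.125).

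Of 21 aquaporin genes, which carry water across membranes, 5 were higher and 0 lower, with a median of 0.45. Leaving out mock replicate 1 raised the count to 11, and fitting the levels of the shoot-marking and root-marking genes as covariates gave 10. PIP1;2 was lost without mock shoot replicates 2 or 3 or ABA shoot replicate 3 (edgeR adjusted p of 0.0646 to 0.123), and PIP1;4 without mock shoot replicates 1, 2 or 3 or ABA shoot replicates 2 or 3 (edgeR adjusted p of 0.0756 to 0.116). The tonoplast aquaporin TIP1;1 had 424, 439 and 553 CPM in the ABA libraries, against 357, 206 and 273 CPM in the mock libraries (log2 fold change 0.76 ± 0.17 SE, adjusted p = 0.0034 by edgeR). PIP2;1 of the plasma membrane had 7314, 8153 and 8574 CPM in the ABA libraries, against 6476, 4354 and 4574 CPM in the mock libraries (log2 fold change 0.64 ± 0.15 SE, adjusted p = 0.00475 by edgeR). In both genes mock replicate 1 was the highest mock library. Without it the log2 fold change was 1.02 for TIP1;1 (edgeR adjusted p = 0.000196) and 0.88 for PIP2;1 (edgeR adjusted p = 0.000238). Both calls were lost in a fit of the 6 shoot libraries alone. Of 16 wax and cuticle genes 2 were higher (4 with those covariates), including KCS2, a fatty acid elongase, with 131, 206 and 236 CPM in the ABA libraries, against 79.7, 64.9 and 69.9 CPM in the mock libraries (log2 fold change 1.42 ± 0.34 SE, adjusted p = 0.00694 by edgeR). The other, KCS3, was lost without mock shoot replicates 2 or 3 or ABA shoot replicate 3 (edgeR adjusted p of 0.0554 to 0.0741). Of 19 clock genes 3 were higher (4 without mock replicate 1), among them RVE2, with 153, 93.0 and 79.3 CPM in the ABA libraries, against 47.3, 32.2 and 21.4 CPM in the mock libraries (log2 fold change 1.69 ± 0.24 SE, adjusted p = 2.63e-05 by edgeR), where replicate 1 was the highest library of each group. Of 13 guard cell genes 1 was higher, and 0 without mock replicate 1, and the summed level of the list was 68.4 to 75.33 CPM in ABA shoots and 52.83 to 112.4 CPM in mock shoots. Of 15 tested root markers 2 were lower and 0 higher: PLT1, at 0 in every ABA shoot, which was lost without ABA shoot replicate 1 (edgeR adjusted p of 0.0565), and WOX5, lost without mock shoot replicates 1 or 3 or ABA shoot replicates 1 or 3 (edgeR adjusted p of 0.08 to 0.176). Without mock replicate 1 the list had 2 higher and 1 lower. The summed level of the root markers, most of it PYK10, was 10180 to 11560 CPM in ABA shoots and 7189 to 10970 CPM in mock shoots. The share called higher was 23.8% for aquaporins, 15.8% for clock, 12.5% for wax and 7.69% for guard cell genes. Over all genes tested it was 4.98%. Of the root markers 13.3% were lower, against 4.67% of all genes. Apart from the aquaporins these shares rest on 1 to 3 genes.

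**Figure D4:**
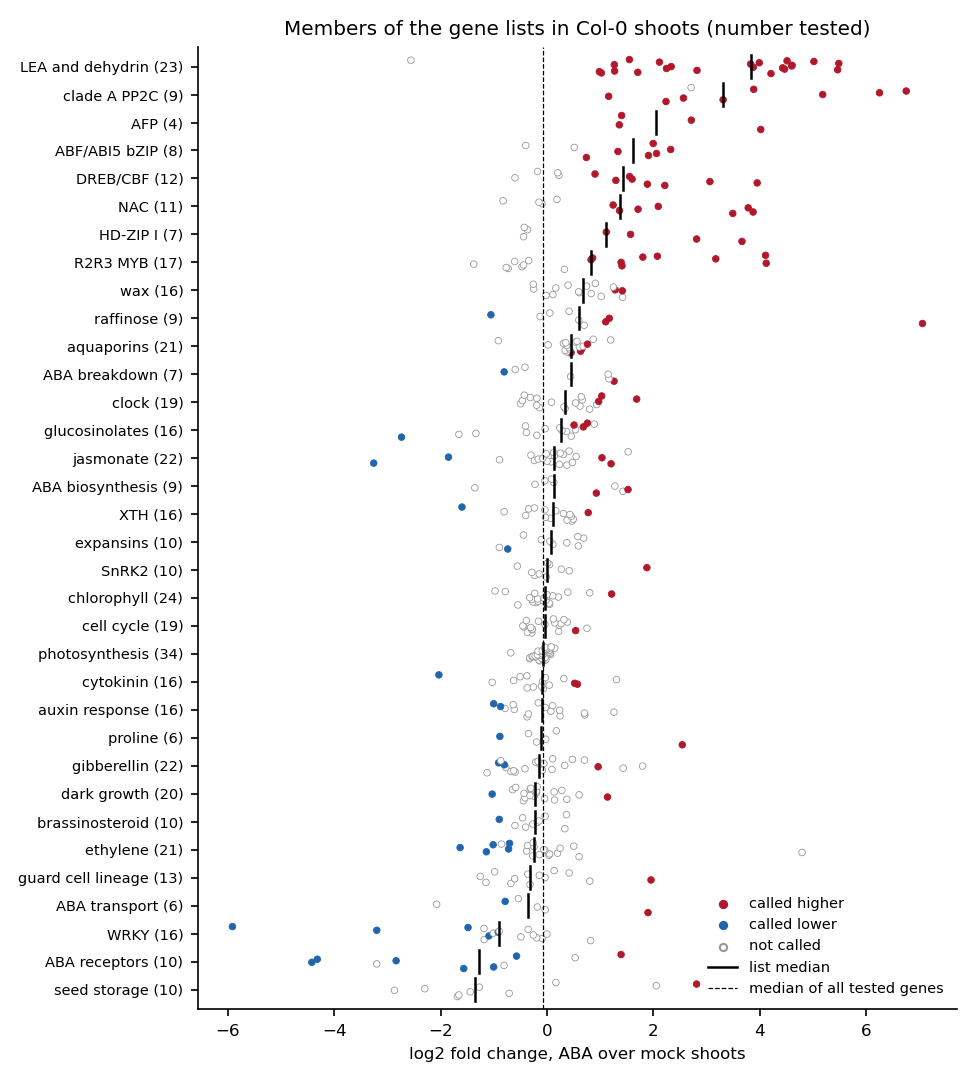
Log2 fold change of ABA over mock shoots for every tested member of the 34 gene lists other than the root and shoot markers, one row per list, with called genes in colour, a black tick at the list median and a dashed line at the median of all tested genes (-0.07). The PP2C and AFP lists lie to the right of that line, as does the LEA list apart from M17. The receptors lie mostly to the left, and the photosynthesis genes close to it.

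The shoot response was set beside that of Col-0 roots under the same treatment, fitted in the same model. In roots 3480 genes were called, or 15.7%, with 1841 higher (8.31%) and 1639 lower (7.4%). Of the 1103 genes higher in ABA shoots, 792 were higher, 9 lower and 302 not called in roots. Of the 1034 genes lower in ABA shoots, 413 were lower, 6 higher and 615 not called in roots. A gene called in one tissue and not in the other is not thereby shown to differ between them. The difference of the 2 responses was itself called for 380 genes (1.72%), with 180 more positive in the shoot (0.812%) and 200 more negative (0.903%). That test took root and shoot libraries as separate samples, though both may come from the same seedlings, which the labels do not say. The 380 became 713 without mock shoot replicate 1, 166 without mock shoot replicate 3, and 239 and 221 without mock root replicates 1 and 2. Among the genes called in shoots the difference was called for 94 of the 1103 higher and 65 of the 1034 lower ones. The ABRE core was in 64.3% of the promoters of the 792 genes higher in both tissues and 48.5% of 301 promoters of those higher in shoots and not called in roots.

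NAP, a NAC factor of leaf senescence, responded in opposite directions. In shoots it had 68.0, 72.3 and 85.5 CPM in the ABA libraries, against 14.4, 18.5 and 19.9 CPM in the mock libraries (log2 fold change 2.09 ± 0.25 SE, adjusted p = 1.23e-06 by edgeR). In roots it averaged 61.9 ± 5.10 CPM after ABA and 147 ± 4.72 CPM after mock treatment (SD, n = 3 each; log2 fold change -1.24 ± 0.24 SE, edgeR adjusted p = 0.000475). The difference of the responses was 3.34 ± 0.34 (SE) on the log2 scale (edgeR adjusted p = 7.71e-06). GPT2, a plastid glucose-phosphate transporter, went the other way, with a log2 fold change of -1.46 in shoots and 1.51 in roots. The shoot call for GPT2 was lost without mock shoot replicates 2 or 3 or ABA shoot replicates 1, 2 or 3 (edgeR adjusted p of 0.105 to 0.179).

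Several core genes rose in both tissues but less in the shoot. ABF3 rose by 2.06 in shoots and by 3.15 in roots on the log2 scale (difference -1.09 ± 0.24 SE, edgeR adjusted p = 0.0166), a difference lost without mock root replicate 1 or ABA root replicate 3 (edgeR adjusted p of 0.0517 to 0.0686). AFP2 rose by 1.36 in shoots and 3.49 in roots (difference -2.13 ± 0.27 SE, edgeR adjusted p = 0.000147). For CYP707A1 the log2 fold change was 1.26 in shoots and 2.73 in roots, and for SOM 2.81 in shoots and 5.06 in roots, again with called differences (edgeR adjusted p = 0.0104 and 0.00298). HB16, a homeodomain-leucine zipper factor, was higher by 1.12 in shoots and had a log2 fold change of 0.01 in roots (difference 1.11 ± 0.20 SE, edgeR adjusted p = 0.00373). TINY, a DREB factor, was not called in shoots at -0.18 and was lower in roots at -2.87. For HDA14, a histone deacetylase gene which lies upstream of AT4G33467 on the same strand with a gap of 398 bases between the genes, the values were 0.40 in shoots and 4.28 in roots.

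**Figure D5:**
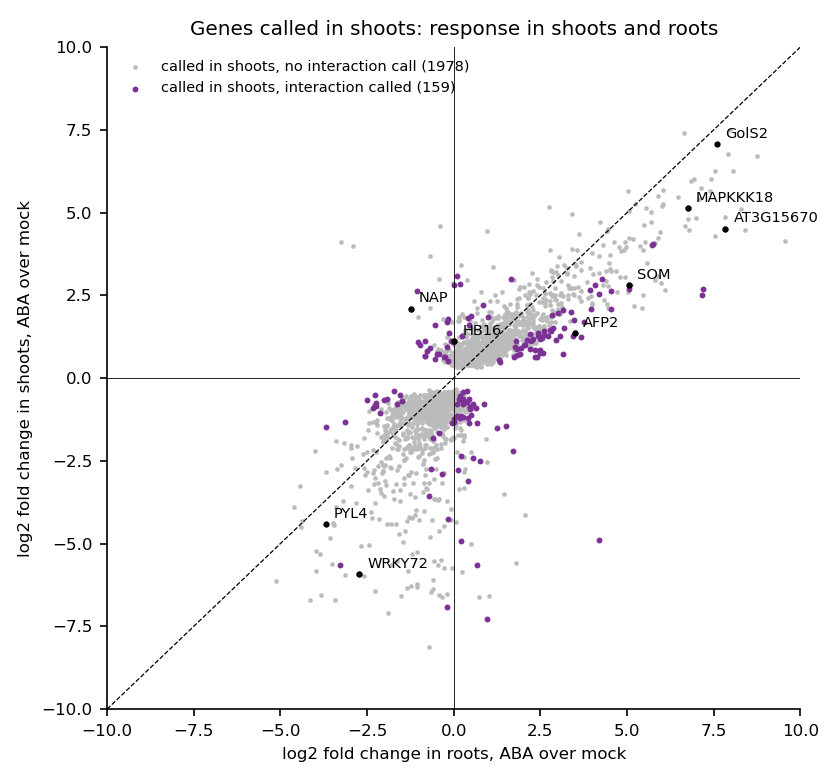
Log2 fold change under ABA in shoots (vertical axis) against roots (horizontal axis) for the 2137 genes called in shoots. The 159 genes whose difference between tissues was called are in purple and the other 1978 in grey. Most genes lie in the quadrants of equal direction, and NAP stands out in the quadrant of higher in shoots and lower in roots.

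Levels without added hormone can be read beside the response from the aba2-3 mock shoots. That comparison uses the same Col-0 mock libraries as the ABA comparison, so the values are only set side by side. PP2CA averaged 319 ± 18.3 CPM in ABA-treated Col-0 shoots, 9.66 ± 0.326 CPM in aba2-3 mock shoots and 21.5 ± 2.19 CPM in Col-0 mock shoots (SD, n = 3 each). AFP1 averaged 240.1 ± 4.54 CPM, 5.18 ± 0.235 CPM and 14.7 ± 4.28 CPM in the same 3 groups, and HAI1 124 ± 13.5, 0.622 ± 0.201 and 3.45 ± 1.46 CPM. All 3 genes were lowest on average in aba2-3. For PP2CA the log2 fold change over Col-0 mock shoots was 3.89 ± 0.16 in ABA-treated Col-0 shoots and -1.15 ± 0.15 in aba2-3 mock shoots (SE). PYL4 averaged 25.3 ± 1.25 CPM in ABA-treated Col-0 shoots, 508 ± 35.0 CPM in aba2-3 mock shoots and 542 ± 38.3 CPM in Col-0 mock shoots, and in aba2-3 it was not called (log2 fold change -0.10 ± 0.15 SE, edgeR adjusted p = 0.856). PYL6 averaged 1.66 ± 0.536 CPM in ABA-treated Col-0 shoots, 72.5 ± 1.19 CPM in aba2-3 mock shoots and 33.0 ± 3.15 CPM in Col-0 mock shoots, and it was called higher in aba2-3 (log2 fold change 1.13 ± 0.25 SE, edgeR adjusted p = 0.0118). The other 8 tested receptors were not called in aba2-3.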

How the data were processed

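RNA of Arabidopsis thaliana seedlings was measured in 30 libraries, of which the 6 Col-0 ABA and mock shoot libraries are the subject here. Per the labels' protocols, RNA was isolated with an RNeasy kit and cDNA made with a SMARTer kit. STAR, Subread, featureCounts, edgeR, limma and the TAIR10 build are named in the submitters' processing notes, without versions, and the counting strand is not given in the sources used here. The deposited files list 33602 genes, each with its count, CPM and RPKM. Per the file headers and values, the deposited counts are whole, the deposited CPM is the count over the library total in M, and the deposited RPKM is that CPM per kilobase of exon.

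Counts of all 30 libraries were fitted with edgeR 4.0.16 (R 4.3.3, limma 3.58.1), using a mean for each group, TMM scaling and filterByExpr, which left 22156 genes. Quasi-likelihood F tests were two-sided, and calls are genes with a Benjamini-Hochberg adjusted p under 0.05 over all tested genes. The error of a log2 fold change is its absolute value over the square root of F. CPM values in the text use TMM-scaled library sizes, and RPKM values are means of the deposited ones. The 6 libraries held 22.39 to 99.26 M counts. Chi-square per degree of freedom between replicates was 21.5 to 192.1, so all 6 were kept as separate samples.

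Groups and replicate numbers came from the titles (Col-O taken to mean Col-0). The members and the gene lists were chosen with earlier results of these data known, so the lists are not independent evidence of their direction. Named genes were the up to 6 called members of a list with the largest change, the 10 largest rises and falls and the 4 largest and smallest tissue differences above a mean log2 CPM of 3, and abundant genes. Tissue-marking genes exceeded 20 CPM in one tissue of the aba2-3 IAA libraries and were 50-fold lower in the other. Percentages of a shoot or root level are relative to the median of those same libraries. Promoters were read from TAIR10.1, where 97.9% of 120591 introns of the deposited gene models start with GT and end with AG. The gene-wise fit was tested on simulated counts, with 99 genes changed at each size. It recovered 39.4% of shoot changes at a log2 fold change of 1 and 76.8% at 2. For the tissue difference it recovered 10.1% and 63.6%. False calls were 4.96% of the shoot calls and 3.95% of the tissue difference calls. Alternatives were RLE factors, DESeq2 1.42.0, no low-count filter, a minimum mean count of 20, a 2-fold minimum and fits of fewer groups. Others were a replicate block, covariates for the levels of the shoot-marking and root-marking genes, a shorter promoter window, and each replicate left out. Python 3.11.15 (pandas 2.3.3, numpy 2.4.6, scipy 1.17.1, matplotlib 3.10.9) was used for summaries and plots. Exons shared with or overlapped by another gene make PYL7, ABF1, CAB1, PYK10, EBF2, ARR8, MYB44, NAC102 and PIP2;3 uncertain.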

Additional observations from a re-analysis of the deposited data

Results flagged for a closer look

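For 21 of the 142 named genes the response to ABA differed between shoot and root by the interaction test (edgeR, adjusted p under 0.05), with 14 more negative and 7 more positive in the shoot. The test contrasted 6 shoot and 6 root libraries in the fit of all 30 libraries, taken as separate samples. Whether root and shoot libraries of the same number came from the same seedlings is not labelled, and no such pairing was fitted. Fitted on the compared groups alone, CYP707A1, RS5, DIN10, HB16, GPT2, TADA and HAB2 lost the call (edgeR adjusted p of 0.0539 to 0.16). Each value is the shoot log2 fold change minus the root one.

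Many of these genes were higher in both tissues and less so in shoots. The difference was -3.31 for AT3G15670, -2.24 for SOM, -2.13 for AFP2, -1.62 for MAPKKK18, -1.47 for CYP707A1, -1.13 for RS5, -1.09 for ABF3, -0.96 for HAB2 and -0.91 for ABF2. Some were lost when 1 library was left out: ABF3 without mock root replicate 1 or ABA root replicate 3 (edgeR adjusted p of 0.0517 to 0.0686), HAB2 without mock root replicates 1, 2 or 3, mock shoot replicate 3, ABA root replicates 2 or 3 or ABA shoot replicates 1 or 2 (edgeR adjusted p of 0.0569 to 0.0917), RS5 without mock root replicates 1 or 2, mock shoot replicates 2 or 3, ABA root replicate 3 or ABA shoot replicates 1 or 3 (edgeR adjusted p of 0.0696 to 0.135) and ABF2 without mock root replicates 1, 2 or 3, mock shoot replicate 3, ABA root replicates 1 or 3 or ABA shoot replicates 1, 2 or 3 (edgeR adjusted p of 0.0595 to 0.116). PIP1;4, an aquaporin, had a log2 fold change of 0.63 in shoots and 2.41 in roots, a difference of -1.78 ± 0.28 SE. HDA14 had a log2 fold change of 0.40 in shoots and 4.28 in roots, a difference of -3.88 ± 0.42 SE. VTE1, tocopherol cyclase, had a log2 fold change of 0.38 in shoots and 3.96 in roots, a difference of -3.58 ± 0.64 SE. Neither of the last 2 genes was called in shoots.

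WRKY72 had a log2 fold change of -5.92 in shoots and -2.74 in roots, a difference of -3.18 ± 0.67 SE, so it fell in both tissues and more in shoots. GPT2 had a log2 fold change of -1.46 in shoots and 1.51 in roots, a difference of -2.97 ± 0.66 SE. The WRKY72 difference was lost without ABA shoot replicate 1 (edgeR adjusted p of 0.0531), and the GPT2 difference without mock shoot replicate 3 or ABA shoot replicate 1 (edgeR adjusted p of 0.0519 to 0.0587). DIN10 fell in both tissues and less in shoots, with a difference of 1.07, lost without mock root replicates 1, 2 or 3, mock shoot replicates 2 or 3, ABA root replicates 1, 2 or 3 or ABA shoot replicate 1 (edgeR adjusted p of 0.053 to 0.129). NAP had a log2 fold change of 2.09 in shoots and -1.24 in roots, a difference of 3.34 ± 0.34 SE, and it was called in opposite directions. ARR8, a cytokinin response regulator, had a log2 fold change of 0.57 in shoots and -0.55 in roots, a difference of 1.12 ± 0.23 SE, and its shoot call was lost without mock shoot replicate 1 or ABA shoot replicate 3 (edgeR adjusted p of 0.0624 to 0.0886). HB16 differed by 1.11.

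The remaining 3 genes were not called in shoots and fell in roots. CYP708A2, a cytochrome P450 of triterpene metabolism in roots, had a log2 fold change of 0.11 in shoots and -2.23 in roots, a difference of 2.35 ± 0.50 SE. CYP708A2 was lost without mock shoot replicate 3 (edgeR adjusted p of 0.0534), and TADA without mock root replicates 1 or 2, mock shoot replicates 2 or 3, ABA root replicates 1 or 2 or ABA shoot replicate 3 (edgeR adjusted p of 0.0503 to 0.103). TADA differed by 2.51 and TINY by 2.696. Relative to aba2-3 IAA roots, root-marking genes were at 35.5% to 45.3% in Col-0 ABA roots and at 78.2% to 80.1% in Col-0 mock roots. The part of this shift in the tissue differences was not tested.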

How the results depend on the processing

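The shoot comparison gave 2137 calls (1103 higher, 1034 lower), 51.6% of them higher. A 2-fold minimum left 334 (240 higher, 94 lower). Fitting the compared groups alone gave 1209 (909 higher, 300 lower), and a replicate block in that fit 1019 (775 higher, 244 lower). With each replicate left out in turn the count was 1422 to 2338, with 822 to 1475 higher and 562 to 863 lower, the lowest totals without mock replicate 3. Without mock replicate 1, 63.1% of the calls were higher, as were 62.1% without ABA replicate 1, 62.8% without ABA replicate 3, 62.0% with a mean count of at least 20, 75.2% with the compared groups alone, 76.1% with the block in that fit and 71.9% with the 2-fold minimum.

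The tissue difference gave 380 calls (180 more positive in the shoot, 200 more negative). A 2-fold minimum left 6 (3 and 3), the compared groups alone 155 (82 and 73), a replicate block in that fit 90 (43 and 47), and DESeq2 gave 1047 (476 and 571). Without single replicates it was 166 to 713, with 70 to 366 more positive and 96 to 347 more negative. The highest count came without mock shoot replicate 1 and the lowest without mock shoot replicate 3, and it was 239 and 221 without mock root replicates 1 and 2. The cause was not tested.

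Same-numbered ABA and mock shoots correlated at 0.0436, -0.0801 and 0.0927 in their deviations, and only ABA replicate 1 correlated best with its own number. Whether same-numbered samples shared a batch is not labelled, and with 3 libraries per group these values cannot decide it. With a replicate block in the fit of all 30 libraries 2121 genes were called in shoots and 398 for the tissue difference. Of 134 named calls, 64 were kept under every alternative, 29 were lost only under the 2-fold minimum, 41 under another, and 0 reversed. The fit of the compared groups alone lost 26 of the 134, and a replicate block in that fit 29. Of 21 named tissue differences, 3 were kept under every alternative. The ABRE shares moved with the motif's form (long forms 39.2% of higher, 3.38% of lower and 9.52% of all tested promoters) and, for all tested, with the window (26.3% in the 250 bases before the start). Low levels limit the falls: 42 genes called lower had no count in ABA shoots.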

Other observations

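Several gene families outside the lists above were examined after their values had been seen, and are given as values only. Of 19 tested heat shock factor genes 5 were higher and 1 was lower in ABA shoots, against 4.98% and 4.67% of all genes. HSFA6B had 255, 241 and 251 CPM in the ABA libraries, against 7.91, 7.16 and 4.53 CPM in the mock libraries (log2 fold change 5.25 ± 0.48 SE). HSFA6A rose by 4.49 and HSFA1E by 1.71 on the log2 scale, while HSFA4A fell by 1.05. The heat shock proteins, the best known targets of these factors, did not pass the test in either direction: 0 of 29 were called by edgeR, 5 had an unadjusted p under 0.05 and 0 were called by DESeq2, with a median log2 fold change of -0.17.

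Of 25 CBL-interacting protein kinases, which act with calcium sensors, 7 were higher and 1 was lower. CIPK12 and CIPK5 rose by a log2 fold change of 1.68 and 1.74, and CIPK25 fell by 0.89. Of 29 cysteine-rich receptor-like kinases, known from defence, 0 were higher and 5 were lower, with a median of -0.50. CRK25 had 0.241, 1.78 and 1.05 CPM in the ABA libraries, against 9.60, 2.09 and 4.16 CPM in the mock libraries, and all 3 ABA libraries were below the mock libraries. CRK28 and CRK29 fell by 1.83 and 1.78 on the log2 scale.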
